A study of Mus musculus with 4 samples.

Results

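The genes described are 10 glycolytic enzymes that the mouse genome encodes as paralogs, that is, as related copies for the same step: Pfkm, Pfkl and Pfkp (phosphofructokinase), Aldoa and Aldoc (aldolase), Eno1 and Eno2 (enolase), Pkm (pyruvate kinase), and Ldha and Ldhb (lactate dehydrogenase). They were chosen by symbol, after Ensembl identifiers were matched to a GRCm38 annotation, and all 10 of them were found among 55421 identifiers and had enough counts to be tested. The study sequenced RNA that its labels call macrophages of islets, taken from the inbred mouse strain C57BL/6 with a wild-type genotype. There were 2 libraries of mice fed a high-fat diet (HFD), which makes mice obese, and 2 of mice fed normal chow (NCD). Neither the age of the mice nor the length of feeding is stated in the labels, which also do not say how macrophages were separated from other islet cells or whether animals were pooled.

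Glycolysis splits glucose into pyruvate, and several of its steps are catalysed by alternative enzymes whose genes differ in where they are used and how the protein is regulated. Phosphofructokinase commits sugar to the pathway and is a tetramer of muscle (Pfkm), liver (Pfkl) and platelet (Pfkp) subunits. Enolase and pyruvate kinase carry out the last steps to pyruvate, and lactate dehydrogenase interconverts pyruvate and lactate, the A subunit being the one that favours lactate. Beta cells of the islet are known for keeping Ldha and the lactate carrier Slc16a1 at a low level, whereas activated macrophages are known for raised glycolysis and lactate release.

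The HFD libraries held 61855337 and 56740720 counts and the NCD libraries 64490097 and 62171973 counts. CPM of genes below are counts relative to library size after TMM scaling between libraries. Sums over marker lists are relative to library totals without this scaling, whose factors were 0.9982 to 1.001. The libraries carried far more endocrine than macrophage transcripts. Summed over 10 macrophage markers they held 889.1 and 903.3 CPM in HFD, against 972.8 and 942.6 CPM in NCD, with 3 markers higher, 5 lower and 2 without a call. Over 10 beta cell markers the sums were 13680 and 14270 CPM in HFD, against 17600 and 18080 CPM in NCD (none higher, 8 lower), and over 6 alpha cell markers 13460 and 14100 CPM in HFD, against 9539 and 9997 CPM in NCD (3 higher, none lower). Markers of acinar cells (9 of 9 higher, 2617 and 3107 CPM in HFD, against 393.6 and 398.9 CPM in NCD), fibroblasts (7 of 7, 1229 and 1260 CPM in HFD, against 117.6 and 117.5 CPM in NCD) and B and plasma cells (6 of 6, 3674 and 3716 CPM in HFD, against 551.8 and 549.5 CPM in NCD) were raised several-fold in HFD. Of the T and NK cell markers 5 of 6 were higher (40.79 and 36.43 CPM in HFD, against 8.296 and 7.833 CPM in NCD). Beside these counts, 17.9% of all genes tested were higher and 14.5% lower. Delta and PP cell markers were higher in 0 and lower in 2 of 3 genes, and ductal in 3 and 1 of 6. Endothelial markers were higher in 3 and lower in 2 of 6, and nerve markers in 2 and 0 of 5. Erythroid markers were higher in 3 and lower in 0 of 3 tested, and muscle markers in 2 and 0 of 3 tested. Of these, Hbb-bt and Tnnt3 were called from means of 0.613 and 0.279 CPM in HFD, against 0 in NCD. Myh4 of the muscle list was at 0 in all libraries. The part of these differences in the results on glycolytic genes was not tested, and in such bulk libraries fewer cells of a type and less RNA per cell cannot be told apart. The labels do not say whether the 2 libraries of each diet were made from different mice, so the p-values rest on a spread between libraries that may be technical.

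**Figure D1:**
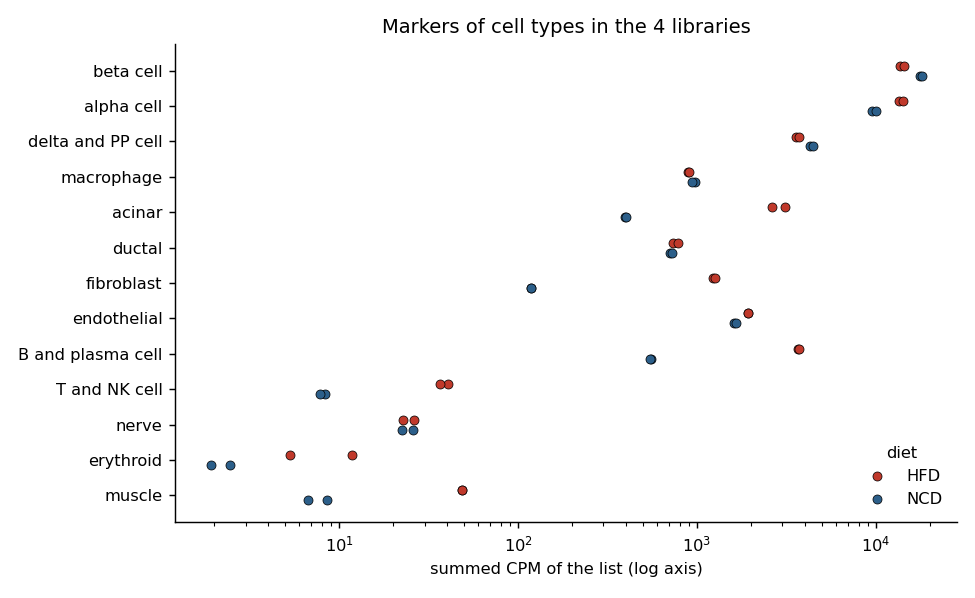
Summed CPM (log axis, without TMM scaling) of 13 lists of cell type markers, with 1 point for each library. HFD is drawn above NCD in each list. Macrophage sums lie between 889.1 and 972.8 CPM in all libraries, below both endocrine lists with the largest sums, and acinar, fibroblast and B and plasma cell sums are higher in both HFD libraries.

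Of the 10 paralogs, 6 rose and 2 fell in HFD, while Aldoc and Ldhb did not pass the test (edgeR's quasi-likelihood test, Benjamini-Hochberg adjusted p under 0.05 over 21563 genes). Among all genes tested 17.9% were higher and 14.5% lower, 32.4% in either direction. The median log2 change of HFD over NCD was 0.63 over the 10 genes and 0.0026 over all genes tested. Both HFD libraries lay on one side of both NCD libraries in all 10 genes, 8 of them higher and 2 lower in HFD. Of the genes tested 34.5% were likewise higher and 33.2% lower without overlap, 67.7% in either direction. Within the 4 steps that have more than 1 listed paralog, the abundant form of aldolase, enolase and lactate dehydrogenase rose, while the minor form fell (Eno2) or did not pass (Aldoc, Ldhb).

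Ldha and Ldhb differed most, and the stretches before their start sites are shown with their matches to a short motif. The 250 bases before the RefSeq start (GRCm38.p6) were searched on both strands for ACGTG and GCGTG, the core of the sites that hypoxia-inducible factors recognise. CACGTG, which also matches factors of the Myc family, holds ACGTG on each strand and therefore counts once per strand. Matches are in capitals below, 5′ to 3′ on the gene's own strand, at chr7:46845554-46845803 (plus strand) for Ldha and chr6:142507958-142508207 (minus strand) for Ldhb.
Ldha: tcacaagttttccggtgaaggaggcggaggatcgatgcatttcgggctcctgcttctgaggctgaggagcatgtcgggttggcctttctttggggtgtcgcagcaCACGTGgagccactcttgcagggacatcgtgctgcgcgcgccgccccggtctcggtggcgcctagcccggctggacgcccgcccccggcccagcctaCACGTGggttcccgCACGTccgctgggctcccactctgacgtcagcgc
Ldhb: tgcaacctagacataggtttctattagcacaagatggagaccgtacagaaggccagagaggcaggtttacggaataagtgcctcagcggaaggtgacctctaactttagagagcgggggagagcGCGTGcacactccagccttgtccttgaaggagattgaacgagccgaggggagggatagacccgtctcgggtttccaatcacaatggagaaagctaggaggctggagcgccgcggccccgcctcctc
The Ldha stretch held 5 matches, 2 CACGTG sites among its letters, and the Ldhb stretch 1. A second RefSeq window of Ldha, at chr7:46846832-46847081 with 2 annotated coding starts against 3, held 1 match, as many as Ldhb. Among 32817 such windows of RefSeq, 38.6% held at least 1 match, 1.01% held at least 5, and 6.02% held a CACGTG. Where a gene had several windows, the one with most annotated coding starts within 50 bases was taken, as for Ldha above. Windows of Eno1 and of Aldoa tied by this rule, and the one at the lowest coordinate was taken. In these windows Pfkp held 3 matches, Pfkm 2, Pfkl, Aldoa, Aldoc and Eno1 1 each, and Eno2 and Pkm none. In the windows taken, 8 of the 10 genes thus had at least 1. Windows not taken held 1 match for Pkm, 2 for Eno1, 0 or 1 for Aldoa and 0 to 2 for Pfkm. The counts therefore depend on the window. A match says only that these letters are present and was not compared with binding in these libraries.

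Phosphofructokinase transcripts did not change in one direction: the liver and platelet subunits rose and the muscle subunit fell. Pfkl (ENSMUSG00000020277, chr10:77986947-78010083, minus strand, GRCm38) stood at 267.1 and 278.6 CPM in HFD, against 149.5 and 150.9 CPM in NCD. Pfkp (ENSMUSG00000021196, chr13:6579768-6648777, minus strand) stood at 235.5 and 217.5 CPM in HFD, against 110.3 and 127.7 CPM in NCD. Both HFD libraries were well above both NCD libraries in these 2 genes. Pfkl rose 1.82-fold (log2 change 0.86 ± 0.05 SE, edgeR adjusted p = 0.0002139) and Pfkp 1.90-fold (0.93 ± 0.09, edgeR adjusted p = 0.001118). Pfkm (ENSMUSG00000033065, chr15:98092589-98132451, plus strand) stood at 34.3 and 34.32 CPM in HFD, against 55.91 and 53.15 CPM in NCD. It was lower in both HFD libraries, which differed from each other by less than the NCD libraries did, with a log2 change of -0.67 ± 0.07 SE (0.629-fold, edgeR adjusted p = 0.001489). Summed over the 3 subunits the libraries held 537 and 530.4 CPM in HFD, against 315.7 and 331.8 CPM in NCD.

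Pfkp shares 748 exon bases with Pitrm1, which encodes a mitochondrial protease on the opposite strand. Since the strand setting of the counting is unknown, reads of these 2 genes may not be separated. Pitrm1 stood at 93.42 and 91.01 CPM in HFD, against 107.1 and 115 CPM in NCD, and so fell (log2 change -0.27, edgeR adjusted p = 0.02202) where Pfkp rose. The call of Pitrm1 was lost without HFD replicate 1, HFD replicate 2 or NCD replicate 2 (edgeR adjusted p up to 0.08958). Pfkm shares 341 exon bases with Gm26513, which averaged 0.295 CPM in HFD and 0.606 CPM in NCD, and 18 with Senp1.

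Aldolase, which splits the doubly phosphorylated hexose into trioses, was almost entirely the A form. Aldoa (ENSMUSG00000030695, chr7:126795234-126800751, minus strand) stood at 1191 and 1221 CPM in HFD, against 915.8 and 918.3 CPM in NCD. It was higher in both HFD libraries by several times the spread within either diet, and rose 1.31-fold (log2 change 0.40 ± 0.03 SE, edgeR adjusted p = 0.0006921), the smallest change among the 6 that rose. Aldoc (ENSMUSG00000017390, chr11:78322968-78327781, plus strand), the form best known from brain, stood at 15.15 and 16.66 CPM in HFD, against 12.69 and 14.08 CPM in NCD. Its diets did not overlap, but the gap was of the size of the spread within each diet and the test was not passed (log2 change 0.25 ± 0.12 SE, edgeR adjusted p = 0.1826). A second identifier annotated as Aldoa, ENSMUSG00000114515 at chr7:126800790-126809108, held 156 and 127 counts in HFD and 285 and 160 counts in NCD and did not pass (edgeR adjusted p = 0.2533).

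Enolase paralogs moved in opposite directions. Eno1 (ENSMUSG00000063524, chr4:150236721-150248879, plus strand), the form most tissues use, stood at 793.7 and 812.2 CPM in HFD, against 383.7 and 369.9 CPM in NCD. Eno2 (ENSMUSG00000004267, chr6:124760053-124769673, minus strand), the neuron-specific enolase that endocrine cells also make, stood at 65.9 and 72.83 CPM in HFD, against 96.92 and 97.05 CPM in NCD. The HFD libraries were above those of NCD for Eno1 and below them for Eno2, without overlap. Eno1 rose 2.13-fold (log2 change 1.09 ± 0.04 SE, edgeR adjusted p = 6.905e-05), and Eno2 fell to 0.715-fold of its NCD level (log2 change -0.48 ± 0.07 SE, edgeR adjusted p = 0.004887). Beta cell markers, which summed to 13680 and 14270 CPM in HFD and to 17600 and 18080 CPM in NCD, also fell, while alpha cell markers did not, and their part in the fall of Eno2 was not tested. The muscle form Eno3 had 9.77 and 8.76 CPM in HFD and 10.59 and 12.11 CPM in NCD and did not pass (edgeR adjusted p = 0.1819).

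Pkm (ENSMUSG00000032294, chr9:59656368-59679375, plus strand), which forms pyruvate and ATP, was the most counted of the 10 genes in HFD, with 1656 and 1624 CPM in HFD, against 879.2 and 879 CPM in NCD. The difference between the diets was far larger than that between libraries of a diet, and Pkm rose 1.87-fold (log2 change 0.90 ± 0.03 SE, edgeR adjusted p = 6.145e-05). Counts per gene do not separate the splice forms of Pkm, whose proteins differ in regulation. The liver and red cell paralog Pklr moved the other way, with 10.52 and 11.09 CPM in HFD, against 19.06 and 20.38 CPM in NCD (log2 change -0.87 ± 0.11 SE, edgeR adjusted p = 0.003238). Pkm shares 767 exon bases with Gm49759, a gene model on the same strand that rose too, averaging 140.2 CPM in HFD and 94.5 CPM in NCD (log2 change 0.57, edgeR adjusted p = 0.002123), and how reads of the shared bases were divided is unknown.

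Ldha changed most of the 10 genes and ranked 21 of 21563 by adjusted p. Ldha (ENSMUSG00000063229, chr7:46841475-46855627, plus strand) stood at 338.3 and 359.3 CPM in HFD, against 71.14 and 72.3 CPM in NCD, a 4.86-fold rise (log2 change 2.28 ± 0.05 SE, edgeR adjusted p = 3.591e-05). Ldhb (ENSMUSG00000030246, chr6:142490249-142507957, minus strand), the heart-type subunit that favours pyruvate, stood at 13.8 and 12.37 CPM in HFD, against 11.42 and 9.572 CPM in NCD. The lowest HFD library of Ldhb was close to the highest NCD library, and the change did not pass the test (log2 change 0.32 ± 0.15 SE, edgeR adjusted p = 0.1611). Acinar, fibroblast and lymphocyte markers were raised in the same libraries, and their part in the rise of Ldha was not tested. The testis forms Ldhc and Ldhal6b had no count in any library. Ldhd, whose enzyme acts on the mirror-image form D-lactate, stood at 8.27 and 5.48 CPM in HFD, against 14.66 and 11.66 CPM in NCD, and fell (log2 change -0.94 ± 0.24 SE, edgeR adjusted p = 0.03357). This call was lost without HFD replicate 2 or NCD replicate 1 (edgeR adjusted p = 0.08252 and 0.1191).

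**Figure D2:**
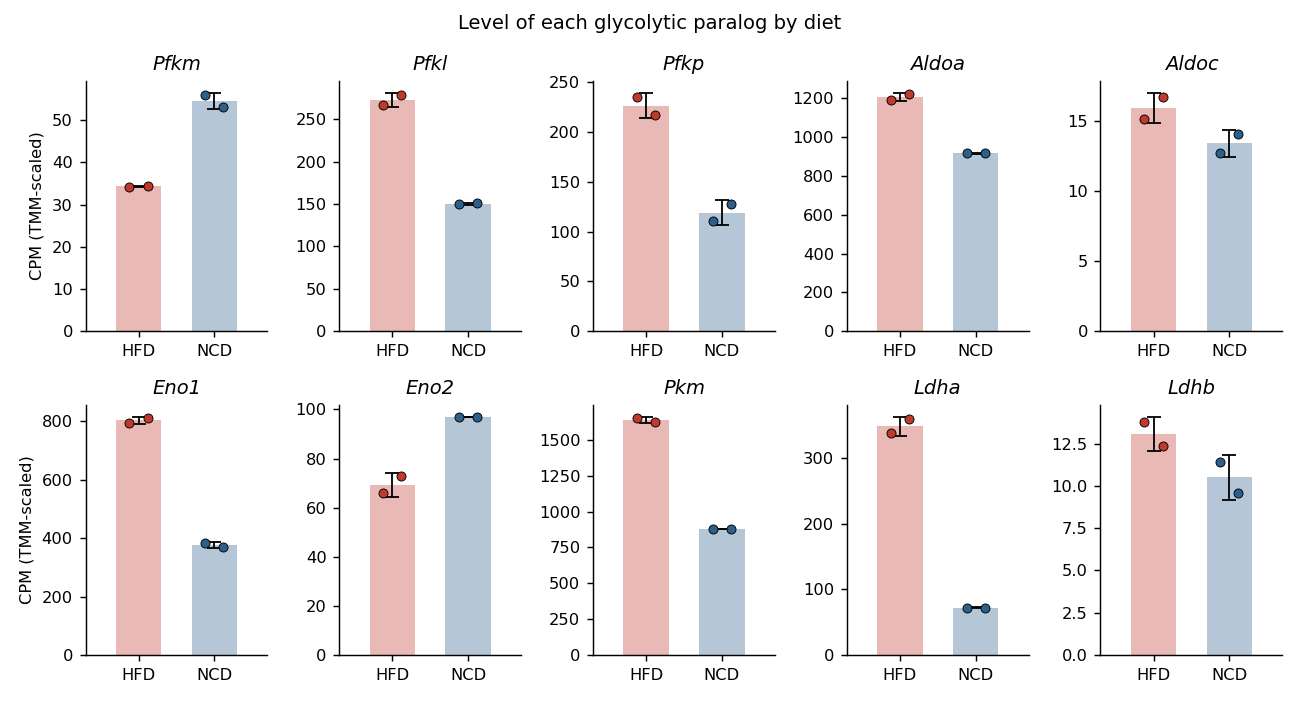
CPM of each of the 10 paralogs, with 1 panel per gene and its own axis from 0. Points are libraries, bars are the mean of 2 libraries per diet and error bars the SD (HFD left, NCD right). Pfkm and Eno2 are lower in HFD, the other 8 higher, and Ldha shows the widest gap, at 338.3 and 359.3 CPM in HFD against 71.14 and 72.3 CPM in NCD.

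Whether paralogs of a step changed by different amounts was asked of their ratio within each library, which does not depend on scaling between libraries. The log2 ratio of CPM was tested with limma, in a fit over the ratios of 21562 genes to the same partner gene. The log2 ratio of Pfkm to Pfkl was -2.96 and -3.02 in HFD, against -1.42 and -1.51 in NCD, a difference of -1.53 ± 0.07 SE (limma adjusted p = 6.027e-05). That of Pfkp to Pfkm was 2.78 and 2.66 in HFD, against 0.98 and 1.26 in NCD, a difference of 1.60 ± 0.11 SE (limma adjusted p = 0.0001084). The muscle subunit thus lost ground to both others. Relative to Pfkl 59.9% of all genes were called lower, and relative to Pfkm 59.9% were called higher and 0.974% lower, so calls of this kind were common. The log2 ratio of Pfkp to Pfkl was -0.18 and -0.36 in HFD, against -0.44 and -0.24 in NCD. These values overlap between the diets, and the difference of 0.07 ± 0.09 SE did not pass (limma adjusted p = 0.5311), where 7.49% of genes were called higher than Pfkl.

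The log2 ratio of Eno2 to Eno1 was -3.59 and -3.48 in HFD, against -1.99 and -1.93 in NCD, a difference of -1.58 ± 0.07 SE (limma adjusted p = 2e-05). The log2 ratio of Ldhb to Ldha was -4.61 and -4.86 in HFD, against -2.64 and -2.91 in NCD, a difference of -1.96 ± 0.16 SE (limma adjusted p = 4.411e-05). In both pairs the HFD libraries lay apart from those of NCD by far more than libraries of a diet from each other. Relative to Eno1 66.2% of all genes were called lower and 6.03% higher, and relative to Ldha 85.6% lower and 2.05% higher, so these ratios fell as those of most genes did. The log2 ratio of Aldoc to Aldoa was -6.29 and -6.19 in HFD, against -6.17 and -6.02 in NCD, and its difference of -0.15 ± 0.11 SE did not pass (limma adjusted p = 0.3235), where 41.4% of genes were called lower than Aldoa. An exact two-sided permutation test over the 4 libraries gave p = 0.667 for Pfkp over Pfkl and p = 0.333 for each of the other 5 pairs, the smallest p that 2 against 2 libraries allow.

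**Figure D3:**
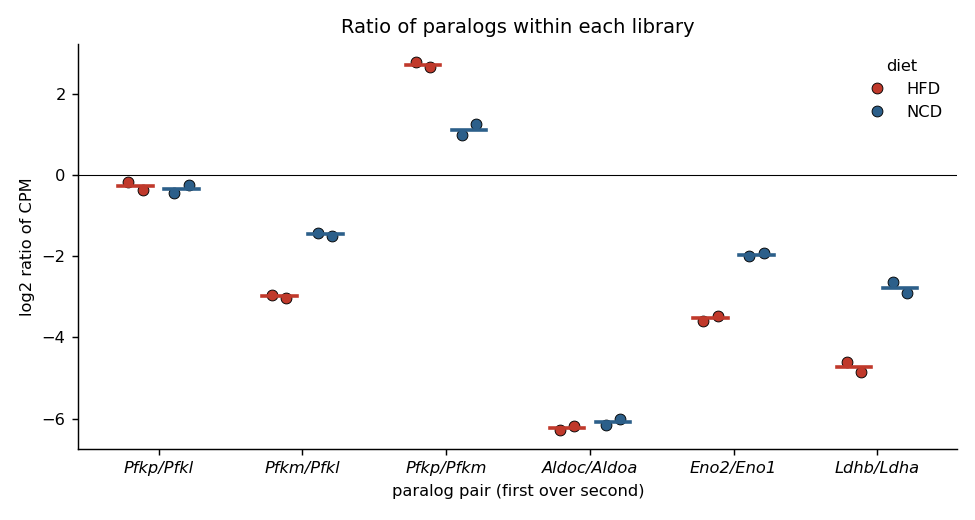
Log2 ratio of CPM of paralogs of the same step in each library (points), with the mean of each diet as a line (HFD left, NCD right in each pair). Pfkm over Pfkl, Eno2 over Eno1 and Ldhb over Ldha are lower in both HFD libraries, Pfkp over Pfkm is higher, and Pfkp over Pfkl overlaps between the diets.

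Levels of different genes were compared as CPM per kilobase of annotated exon. In HFD the order of means was Aldoa (414 ± 7.45 CPM per kilobase, SD, n = 2), Pkm (328 ± 4.45), Eno1 (149 ± 2.44), Ldha (105.4 ± 4.48), Pfkl (40.9 ± 1.21), Pfkp (16.9 ± 0.950), Eno2 (14.7 ± 1.04), Pfkm (10.3 ± 0.00560), Ldhb (8.33 ± 0.644) and Aldoc (4.88 ± 0.326). In NCD it was Aldoa (315 ± 0.597), Pkm (176 ± 0.0317), Eno1 (70.05 ± 1.81), Pfkl (22.5 ± 0.1501), Ldha (21.7 ± 0.246), Eno2 (20.6 ± 0.0202), Pfkm (16.3 ± 0.584), Pfkp (8.88 ± 0.921), Ldhb (6.68 ± 0.830) and Aldoc (4.10 ± 0.301). Libraries of neighbours in these orders did not overlap, but in NCD those of Pfkl, Ldha and Eno2 all lay between 20.6 and 22.61 CPM per kilobase. Ldha stood above Pfkl in HFD and just below it in NCD, and Pfkp stood above Eno2 and Pfkm in HFD and below both in NCD.

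As shares of the level per kilobase summed over the listed paralogs of a step, Pfkl made up 60.1% ± 1.55 in HFD and 47.2% ± 0.167 in NCD of phosphofructokinase (SD, n = 2), and Pfkp 24.8% ± 1.495 in HFD and 18.6% ± 1.74 in NCD. Pfkm made up 15.1% ± 0.0515 in HFD and 34.2% ± 1.57 in NCD. Eno2 made up 8.98% ± 0.445 of enolase in HFD and 22.7% ± 0.471 in NCD, and Ldhb 7.34% ± 0.814 of lactate dehydrogenase in HFD and 23.6% ± 2.44 in NCD. Aldoc stayed near 1% of aldolase in either diet, at 1.16% ± 0.0563 in HFD and 1.29% ± 0.0907 in NCD. The exons of Pfkp sum to 13401 bases but its longest coding transcript has 4145, and with that length Pfkp made up 39.1% in HFD and 32.6% in NCD, and Pfkm 8.53% in HFD and 21.6% in NCD, which places Pfkp above Pfkm in both diets.

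Genes with near-identical annotated copies can lose reads to them, so counts on copies of at least 90% identity over at least 300 aligned bases were added up. Of the 10 genes this mattered most for Eno1, whose 5 copies with counts held 11.3% and 11.4% of the joint counts in HFD and 10.7% and 11.4% in NCD. Nearly all of these lay on Eno1b (99.5% identity, 3634 and 3470 counts in HFD, 1827 and 1818 in NCD) and Gm4735 (99.6% identity, 2578 and 2412 counts in HFD, 1107 and 1116 in NCD). Both copies rose by about as much as Eno1 itself, with log2 changes of 1.06 and 1.26 (edgeR adjusted p = 0.0003683 and 0.0003286), and Eno1 counted together with its copies had a log2 change of 1.10. Copies of Pkm, of which Gm6560 took most, held 0.692% to 0.889% of the joint counts over the 4 libraries. Copies of Ldha, led by Ldha-ps2 in the HFD libraries, held 0.782% and 0.46% in HFD and 1.76% and 1.14% in NCD. Copies of Ldhb and Aldoa held at most 1.87% and 0.0434%. Counted with their copies, Eno1, Pkm, Ldha and Aldoa were still called and Ldhb was not, with log2 changes of 0.90 for Pkm, 2.27 for Ldha, 0.31 for Ldhb and 0.40 for Aldoa. The phosphofructokinase genes, Aldoc and Eno2 had no such copy.

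The same count mattered far more for Gapdh, the triose dehydrogenase between aldolase and enolase that is often used as a loading control. Gapdh itself held 22.08 and 26.2 CPM in HFD, against 17.98 and 49.37 CPM in NCD, far below its neighbours in the pathway, and did not pass (log2 change -0.48 ± 0.45 SE, edgeR adjusted p = 0.476). Without NCD replicate 1 it was called lower (log2 change -1.03, edgeR adjusted p = 0.006696), and without NCD replicate 2 its log2 change was 0.42 (edgeR adjusted p = 0.1204). Its 191 annotated copies, 127 of them with counts, held 98.9% and 98.7% of the joint counts in HFD and 98.3% and 94.9% in NCD. Copies were taken by sequence match alone, so these include other named genes with a matching stretch, such as Peli2 at 90.8% identity. Peli2 held 904 and 815 counts in HFD, against 665 and 530 in NCD, which were added whole. Gm7336 alone (99.8% identity) held 30976 and 28774 counts in HFD, against 16447 and 13406 in NCD. Counted with its copies Gapdh held 2010 and 2034 CPM in HFD, against 1036 and 973.1 CPM in NCD, a rise of 1.01 ± 0.04 SE on the log2 scale (edgeR adjusted p = 9.126e-05). The direction for Gapdh therefore depends on whether copies are included and, for the gene alone, on which NCD library is used.

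**Figure D4:**
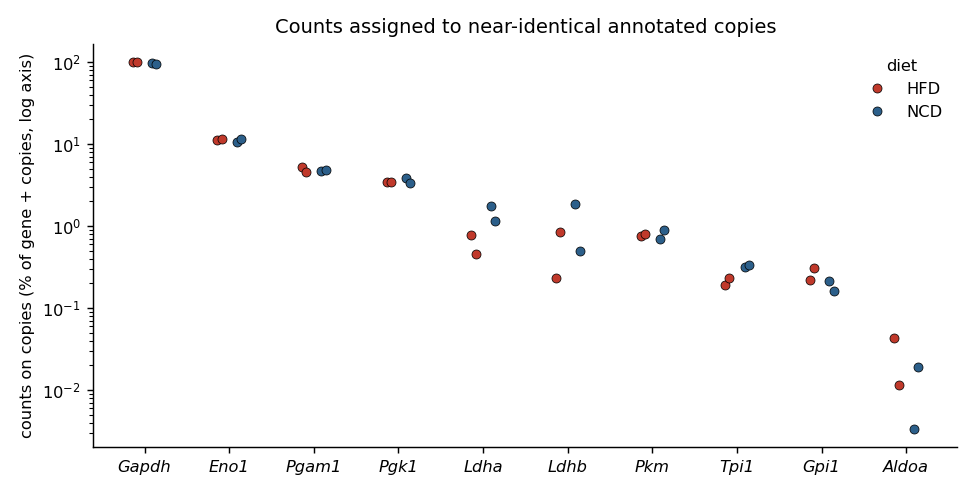
Counts on near-identical annotated copies as a percentage of the counts on a gene and its copies together (log axis), for the genes with at least 1 copy, with 1 point per library (HFD left, NCD right). Gapdh lies at 94.9% to 98.9%, Eno1 at 10.7% to 11.4%, and the other listed paralogs below 2%.

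The other genes of glycolysis that passed the test mostly rose with the abundant paralogs. Of 12 further genes 11 were tested, of which 4 rose, 1 (Pklr) fell and 6 did not pass, with a median log2 change of 0.21 beside 0.0026 over all genes tested. Among all genes tested 17.9% rose and 14.5% fell. Pgk1, the first ATP-forming step, stood at 573.4 and 568.1 CPM in HFD, against 247.5 and 252.1 CPM in NCD (log2 change 1.19, edgeR adjusted p = 5.78e-05). Tpi1, which interconverts the trioses, stood at 327.9 and 347.4 CPM in HFD, against 164.9 and 175.5 CPM in NCD (log2 change 0.99, edgeR adjusted p = 0.0002388). Pgam1, the mutase before enolase, and Gpi1, the isomerase before phosphofructokinase, rose less, with log2 changes of 0.60 and 0.49 (edgeR adjusted p = 0.001 and 0.001142). Those that did not pass included Bpgm, Eno3, Gapdh, Minpp1 and Pgam2.

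Of the hexokinases, which trap glucose in the cell, Hk1, Hk2 and Hkdc1 rose. Hk1 stood at 108.4 and 109.6 CPM in HFD, against 52.98 and 48.58 CPM in NCD (log2 change 1.10, edgeR adjusted p = 0.0003015), and Hk2 at 42.71 and 38.33 CPM in HFD, against 17.98 and 15.89 CPM in NCD (log2 change 1.26, edgeR adjusted p = 0.0008085). Hkdc1 stood at a low level and had a log2 change of 1.75. Its call was lost without HFD replicate 2 (edgeR adjusted p = 0.08608). Hk3 did not pass.

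Among 7 regulators of the phosphofructokinase step 1 rose, 3 fell and 3 did not pass (median log2 change -0.13), where 17.9% higher and 14.5% lower is the share over all genes tested and 1 of 7 is close to it. Pfkfb3 makes the sugar bisphosphate that activates phosphofructokinase and stood at 86.3 and 153.7 CPM in HFD, against 43.07 and 53.14 CPM in NCD. Its HFD libraries were both higher but far apart, and the rise (log2 change 1.32 ± 0.28 SE, edgeR adjusted p = 0.01793) did not pass without NCD replicate 1 (edgeR adjusted p = 0.07166). Pfkfb2, a second enzyme of this kind, fell (72.62 and 73.45 CPM in HFD, against 100.6 and 96.06 CPM in NCD; log2 change -0.43, edgeR adjusted p = 0.003754). The phosphatase genes Tigar and Fbp2 had log2 changes of -0.37 and -0.85, but the call of Tigar was lost without HFD replicate 1, HFD replicate 2 or NCD replicate 1 (edgeR adjusted p up to 0.0579) and that of Fbp2 without HFD replicate 2, NCD replicate 1 or NCD replicate 2 (up to 0.1169) and with no count filter (0.05165).

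Carriers of glucose and lactate rose in 4 of 6 genes, with none lower and a median log2 change of 1.26, beside 17.9% higher and 14.5% lower among all genes tested. The lactate exporter gene Slc16a3 stood at 91.92 and 88.52 CPM in HFD, against 18.33 and 15.27 CPM in NCD, a log2 change of 2.43 (edgeR adjusted p = 0.000119) and thus of a size close to that of Ldha. Slc16a1, the lactate carrier that beta cells keep low, rose too (25.83 and 24.71 CPM in HFD, against 10.14 and 10.87 CPM in NCD; log2 change 1.27). The glucose carrier gene Slc2a1 stood at 225.3 and 233.2 CPM in HFD, against 94.47 and 97.31 CPM in NCD (log2 change 1.26, edgeR adjusted p = 9.396e-05), and Slc2a3 had a log2 change of 1.43. Slc2a2, the glucose carrier of beta cells, overlapped between the diets (37.37 and 39 CPM in HFD, 37.44 and 39.56 CPM in NCD; edgeR adjusted p = 0.9232). Slc16a7 did not pass, but was called without HFD replicate 1 (edgeR adjusted p = 0.03454).

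**Figure D5:**
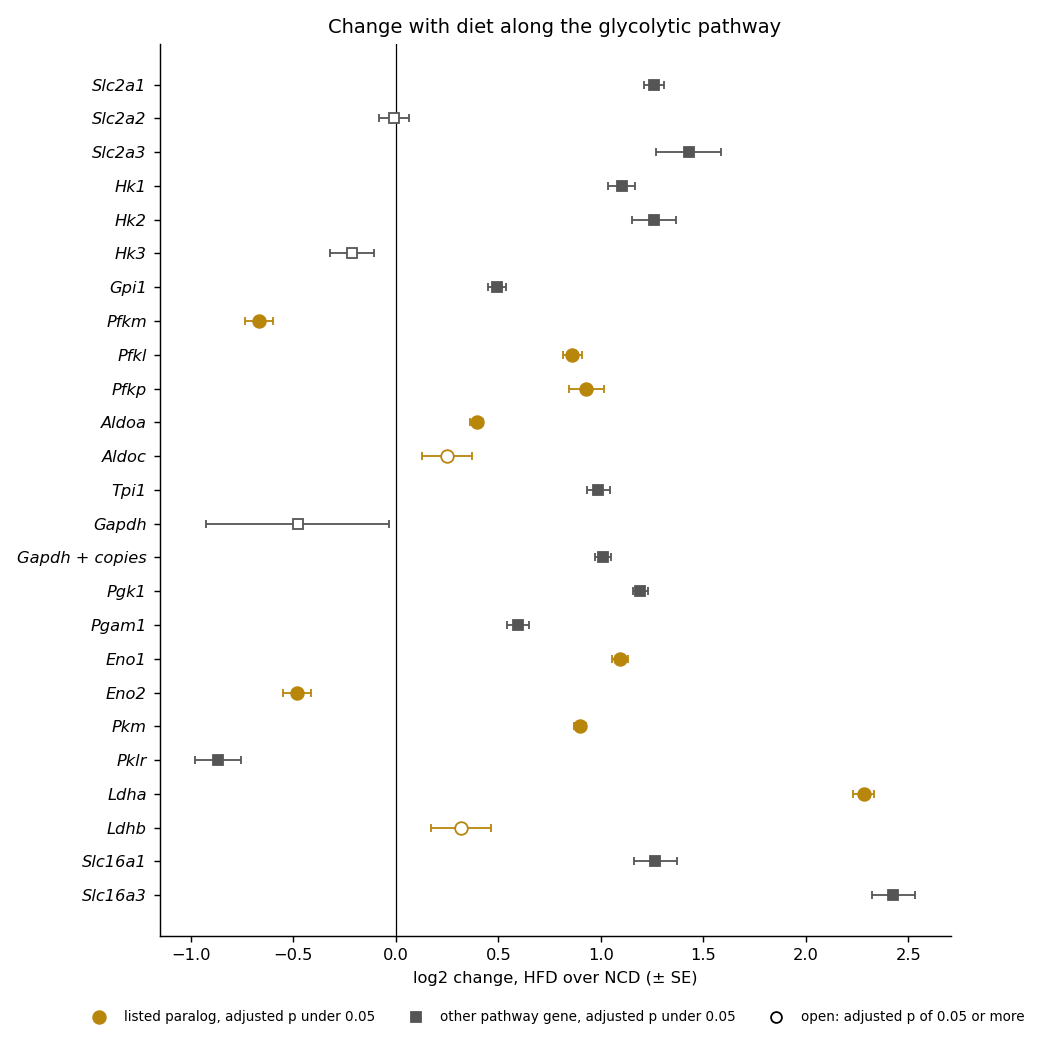
Log2 change of HFD over NCD (± SE) for the listed paralogs (circles) and other genes of glucose uptake, glycolysis and lactate export (squares), in pathway order from top to bottom. Filled symbols passed edgeR's test at an adjusted p under 0.05. Ldha and Slc16a3 lie farthest right, at 2.28 and 2.43, and of the filled symbols those of Pfkm, Eno2 and Pklr lie left of 0.

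Beyond pyruvate the direction was mixed. Of 20 genes of pyruvate handling 3 rose, 7 fell and 10 did not pass, with a median log2 change of -0.16. Over all genes tested 17.9% were higher, a share close to that of the 3 genes, and 14.5% lower. Pdk4 and Pdk1, kinases that switch off pyruvate dehydrogenase, rose (log2 changes 1.74 and 0.56, edgeR adjusted p = 0.0002939 and 0.001718), and so did the opposing phosphatase gene Pdp1 (0.51), whose call was lost without any 1 of the 4 libraries (edgeR adjusted p = 0.05076 to 0.1186). Pcx, the pyruvate carboxylase abundant in beta cells, stood at 45.06 and 48.58 CPM in HFD, against 97.7 and 88.74 CPM in NCD (log2 change -0.99, edgeR adjusted p = 0.0006566). Got1, Mdh1 and Slc25a12 of the malate-aspartate shuttle fell as well (log2 changes -0.53, -0.46 and -0.40), with Gpd1, Me1 and the pyruvate carrier gene Mpc2. The call of Mdh1 was lost without HFD replicate 1 (edgeR adjusted p = 0.07346), that of Gpd1 without NCD replicate 1 (0.05714), and that of Me1 without HFD replicate 1, HFD replicate 2 or NCD replicate 2 (up to 0.06274). The pyruvate dehydrogenase subunit genes Pdha1, Pdhb, Dlat and Dld had log2 changes between -0.14 and 0.02 and did not pass.

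Many glycolytic genes are textbook targets of hypoxia-inducible factors, and 10 other targets of these factors were read out. Of these, 8 rose, none fell and Vegfa and Ndrg1 did not pass, beside 17.9% higher and 14.5% lower among all genes tested. The median log2 change was 0.47 for these targets and 0.0026 for all genes tested. Egln3, an oxygen-sensing prolyl hydroxylase, stood at 60.21 and 60.4 CPM in HFD, against 1.892 and 3.153 CPM in NCD (log2 change 4.58, edgeR adjusted p = 0.000201). Car9, a carbonic anhydrase, and Adm, the peptide adrenomedullin, had log2 changes of 3.32 and 2.65. Bnip3, Egln1, Ankrd37, P4ha1 and Ero1l rose by 0.30 to 0.64 on the log2 scale. The call of Egln1 was lost without HFD replicate 1, HFD replicate 2 or NCD replicate 1 (edgeR adjusted p up to 0.09475) and that of Ankrd37 without any 1 of the 4 libraries (up to 0.118). Vegfa stood at 500 and 482.3 CPM in HFD and at 463.2 and 498.5 CPM in NCD, which overlap. Whether these factors had a part in the changes of the targets or of the glycolytic genes was not tested. Acinar, fibroblast and B and plasma cell markers were raised in the same HFD libraries, and their part was not tested either.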

How the data were processed

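For each library the authors deposited a table of raw counts by Ensembl gene. Frozen islets, TRIzol extraction and a stranded KAPA kit are stated per the labels' protocols. According to the submitters' processing notes the tools were HISAT, featureCounts 1.5.0 and DESeq 1.8.3 on build GRCm38, with no roles or settings. Neither the strand setting nor the handling of multi-mapping reads is stated there. Counts of 4 to 40 that are multiples of 4 were 1.64 to 1.74 times as frequent as their direct neighbours in the 4 libraries, so a count may not stand for 1 fragment, and depth may overstate precision.

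Symbols, exons and coordinates came from a GENCODE annotation of GRCm38 (55154 of 55421 identifiers had a symbol). Groups and replicate numbers came from the titles. In R 4.3.3, genes passing filterByExpr at a minimum count of 10 were tested with edgeR 4.0.16 (TMM, quasi-likelihood F test, diet only). Paralog ratios used log2 CPM with a prior count of 2 and limma 3.58.1. Copies were found with BLAST+ 2.17.0 against annotated transcripts, leaving out the gene's own locus. Levels per kilobase used the union of exons. The scripts were tested on simulated counts. Replicate numbers were not taken to pair the libraries.

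The 10 genes and all lists were chosen with earlier results of these data known. Named are the 10 genes, their unlisted family members, Gpi1, Tpi1, Gapdh, Pgk1 and Pgam1, copies with counts, and up to 4 genes of each pathway list by p. Further list members, Ldhd and the genes sharing exons were named after their values were seen, marker lists are given as sums and the smallest copies are not named. A few genes within this rule are left unreported. Alternatives were DESeq2 1.42.0 (its size factors, then its Wald test), library sizes without the most-counted genes, filters at a mean of 5 CPM or none, limma-voom, another prior count, edgeR with the partner gene as scaling, coding transcript length, shares over all family members, counts divided by 4, a replicate block, leaving out each library, a change of at least 2-fold and adding copies. Both Aldoa identifiers and a crossed block were added after the data were seen.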

Additional observations from a re-analysis of the deposited data

How the results depend on the processing

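All 10 genes and all 6 paralog ratios stayed on their side of the threshold, with their direction where called, under each alternative run that gives a value per gene. The ratio of Pfkp to Pfkl, which had no call, ranged from -0.03 to 0.17 when 1 library was left out. With a change of at least 2-fold required, 2160 genes were higher and 287 lower, and of the 10 genes 2 (Eno1 and Ldha) were higher and 0 lower. Leaving out each library gave 2710 to 3224 genes higher and 2015 to 2174 lower, with 2015 lower without HFD replicate 1. With the length of the longest coding transcript the shares were 8.53% in HFD and 21.6% in NCD for Pfkm, 39.1% in HFD and 32.6% in NCD for Pfkp, 0.728% in HFD and 0.805% in NCD for Aldoc, 5.89% in HFD and 15.7% in NCD for Eno2, and 4.97% in HFD and 16.9% in NCD for Ldhb. Over every annotated enolase gene Eno2 made up 7.31% in HFD and 18.3% in NCD. Gapdh reversed to 1.01 when its copies were added, from -0.48 alone, and without NCD replicate 1 it was called lower, at -1.03 (edgeR adjusted p = 0.006696), while without NCD replicate 2 its value was 0.42 (edgeR adjusted p = 0.1204). In each case the cause was not tested, except that a 2-fold limit on the same fit cannot add calls by construction. Leaving out a library changes the fit and the genes tested, and single genes gained as well as lost a call.

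With the replicate number as a block, 3252 genes were higher and 2583 lower, and the 10 genes kept 6 calls higher and 2 lower. HFD and NCD libraries of the same number did not deviate together (correlation 0.00211), so the numbers were not read as a pairing. Under the block Pdp1 and Ankrd37 missed the threshold (edgeR adjusted p = 0.05059 and 0.05159). A crossed block gave 3455 higher and 2754 lower. A library alone in its diet was assumed to vary like the other diet. The floor of 3 counts was 0.0465 to 0.0529 CPM, far below every listed gene, and covers counting error only.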
